A study of Mus musculus with 2 samples.

Results

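Rtp1, Rtp2, Rtp3, Gnal and Gnat3 are the 5 mouse genes on a sensory receptor TaqMan array card that encode neither a receptor nor a reference, and they were taken from the 96 assays of the card by gene symbol. They comprise 3 receptor transporters and 2 G protein α subunits. Whole liver cDNA of 2 male C57BL6 mice of the same age was screened (n = 2 livers, the library labelled HF1 being liver 1 here and the library labelled M3 liver 2). There was no treatment and no other tissue, and the card holds no marker gene of a liver cell type against which the tissue could be checked. Each assay had 4 wells per liver. A well was read as its cycle threshold (Ct), the PCR cycle at which its fluorescence crosses a set level, so that an earlier Ct means more template. The other assays were 86 sensory receptors with a mouse assay (43 ORs, 35 bitter TRs, 3 sweet or umami TRs and 5 Opns), the references 18S and Gapdh, and the GNAT1, GNAT2 and OLFR658 rows, whose assay names lack the mouse prefix and which were left out. The 18S assay also lacks the mouse prefix and was kept as a reference.

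ORs are largely retained inside cells that lack accessory proteins. Rtp1 and Rtp2 encode receptor transporting proteins of olfactory sensory neurons that bring ORs to the cell surface. Rtp3, also named Tmem7, belongs to the same family. Its human counterpart is known as a gene of the liver, and in cultured cells it helps bitter TRs reach the surface. Gnal encodes Gαolf, which couples ORs to adenylyl cyclase in the nose and is also used by striatal neurons. Gnat3 encodes gustducin, the Gα subunit of taste cells that acts below sweet, umami and bitter TRs and is also found in tuft cells of the gut and airways. In the RefSeq gene table for GRCm38.p6, which was used for gene names and gene order, Rtp1 and Rtp2 lie on the same chromosome with 3 protein-coding genes between them, Masp1, Rtp4 and Sst. Rtp3 lies on another chromosome between Lrrc2 and Ltf. The transporter Rtp4 was not on the card.

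Of the 5 genes, Rtp3 was the only one with a Ct in at least 2 wells of both livers. Gnat3 had a Ct in every well of liver 1, while liver 2 gave none. Gnal had a single late well in liver 1, and Rtp1 and Rtp2 had no Ct in any well. With detection set at 2 or more wells in each liver, 1 of the 5 genes was detected, beside 15 of the 86 receptors (17.4%). In liver 1 alone, 2 of the 5 genes met the rule, beside 35 of the 86 receptors (40.7%). A Ct in any well of either liver was recorded for 3 of the 5 genes and for 57 of the 86 receptors (66.3%). A share over 5 genes is coarse, and its difference from that of the receptors was not tested. In wells, the 5 genes gave a Ct in 9 of 20 for liver 1 and in 4 of 20 for liver 2. The receptors had a Ct in 40.4% of their wells in liver 1 and in 15.7% in liver 2.

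**Figure D1:**
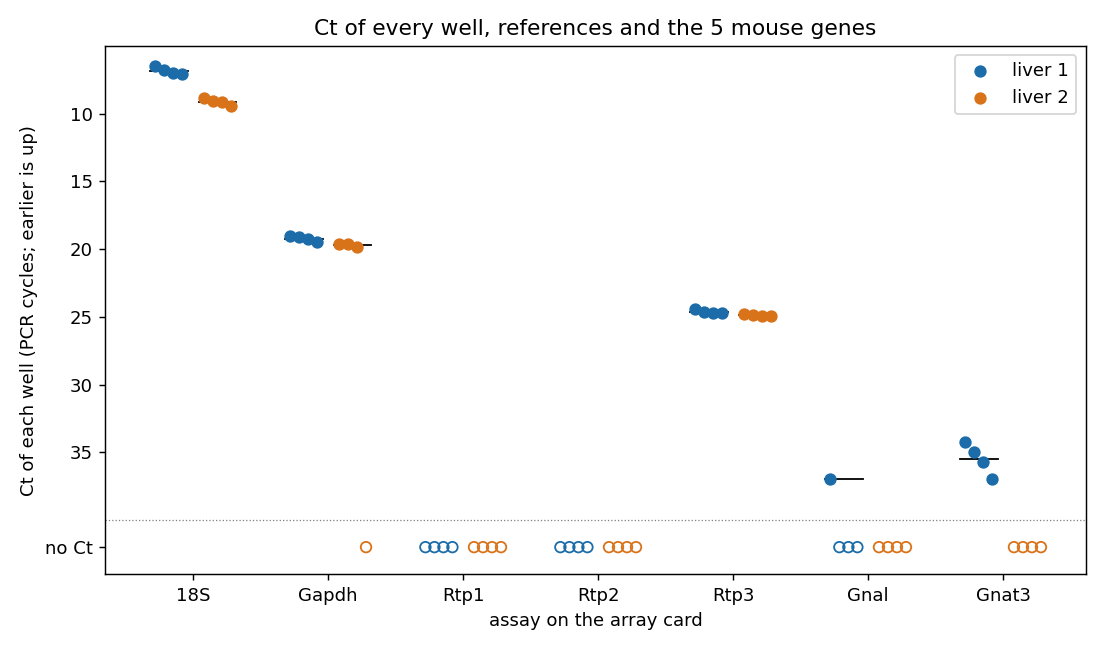
Ct of every well (PCR cycles, axis reversed so that earlier is up) for 18S, Gapdh and the 5 genes in liver 1 and liver 2; filled points are wells with a Ct, black lines their mean, and open points on the lowest line are wells without a Ct. Rtp3 has 8 filled points, Gnat3 has 4 in liver 1 alone, Gnal has 1, and Rtp1 and Rtp2 have none.

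The wells of Rtp3 read 24.44, 24.67, 24.71 and 24.73 cycles in liver 1, and 24.77, 24.85, 24.92 and 24.97 cycles in liver 2. Every well of liver 2 was later than every well of liver 1, although the means, 24.64 and 24.88, lay only 0.240 cycles apart. The SD between wells was 0.133 cycles in liver 1 and 0.0842 cycles in liver 2. Among the assays with all 4 wells, this SD ranked 2 of 26 from the smallest in liver 1, after Olfr99 at 0.0485, and 1 of 10 in liver 2, where the next was Tas1r3 at 0.148. Rtp3 was therefore among the most reproducible of the assays with all 4 wells, at the level of wells, which are technical repeats. On fewer wells, some assays of liver 2 had a smaller SD than Rtp3. These were Opn3 (0.0513) and Tas2r108 (0.0230) on 3 wells and Olfr57 (0.00242) on 2.

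After 18S and Gapdh, Rtp3 was the earliest assay of the card in both livers, ranking 3 of 62 assays with a Ct in liver 1 and 3 of 21 in liver 2. Gapdh, the glycolytic enzyme used as a housekeeping gene, read 19.07, 19.10, 19.25 and 19.49 cycles in liver 1 and 19.60, 19.64 and 19.87 cycles in 3 wells of liver 2, the fourth being blank. Rtp3 followed Gapdh by 5.41 cycles in liver 1 and 5.18 in liver 2 (mean 5.29 ± 0.166, SD, n = 2 livers), and no well of Rtp3 came within 4.9 cycles of a Gapdh well. If the product doubled in every cycle of both assays, this would place Gapdh 42.5 times above Rtp3 in liver 1 and 36.1 times in liver 2. These distances leave out the blank Gapdh well, and if it is given a Ct of 40 instead, the mean distance over the livers falls to 2.76 cycles. The efficiencies of the assays are not given in the sources used here, so distances between different assays are given in cycles below. Relative to 18S, the RNA of the small ribosomal subunit, ΔCt of Rtp3 was 17.8 in liver 1 and 15.8 in liver 2 (mean 16.8 ± 1.45, SD, n = 2 livers). The larger spread with 18S goes with the Ct of 18S itself, which read 6.50 to 7.06 cycles in liver 1 and 8.83 to 9.43 cycles in liver 2.

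No receptor reached the level of Rtp3. The earliest OR was Olfr99 in both livers, 6.28 cycles after Rtp3 in liver 1 and 6.40 cycles in liver 2. The earliest Opn, Opn3, a non-visual opsin, followed Rtp3 by 6.43 and 6.49 cycles in livers 1 and 2. The earliest sweet or umami TR, Tas1r3, the subunit shared by the sweet and the umami receptor, followed Rtp3 by 6.87 and 7.15 cycles. Bitter TRs, which Rtp3 is known to aid in cultured cells, started later still. Tas2r137 was the earliest in liver 1, 7.84 cycles after Rtp3, and Tas2r108 the earliest in liver 2, 8.08 cycles after Rtp3. Neither was resolved from Tas2r135. The mean Ct of Tas2r135 was 32.55 in liver 1, beside 32.48 for Tas2r137 (SD between wells 0.271). It was 33.03 in liver 2 (SD 0.272), beside 32.96 for Tas2r108. Tas2r143 was likewise not resolved from the earliest bitter TR of each liver. Its mean Ct was 32.64 in liver 1 (SD 0.398) and 33.20 in liver 2 (SD 0.410, 3 wells). Nor was Tas2r108 resolved from Tas2r137 in liver 1, at 32.55 (SD 0.307). In liver 2 the values of Olfr99, Opn3 and Tas2r108 rest on 3 wells, the fourth being blank. Each of these distances far exceeded the SD between wells of both genes, and in every case the last Rtp3 well preceded the first receptor well by over 6 cycles. In whole liver cDNA, a transcript held by few cells and a transcript that is low in many cells cannot be told apart.

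**Figure D2:**
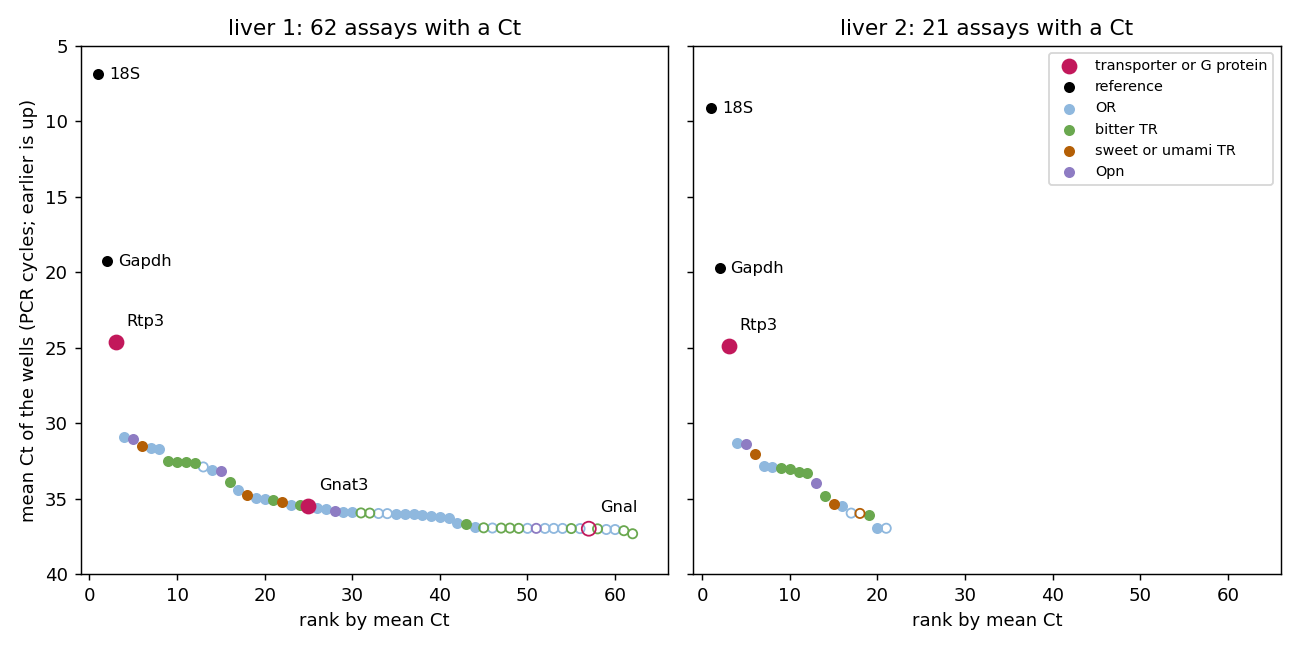
Mean Ct of the wells (PCR cycles, axis reversed so that earlier is up) against the rank of the mean for every assay with a Ct in liver 1 (62 assays) and liver 2 (21 assays), colored by class; open symbols rest on a single well. Rtp3 stands alone between Gapdh and the receptors in both panels, Gnat3 lies among the late receptors of liver 1, and Gnal lies on the plateau of single wells near 37 cycles.

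By the summed absolute difference of mean Ct over the 2 livers, the assays most like Rtp3 were Gapdh (10.6 cycles), Olfr99 (12.7 cycles) and Opn3 (12.9 cycles), so that no assay of the card came close to it. A total of 18 assays had at least 2 wells in both livers, among them 15 receptors. All 18 came later in liver 2, and Rtp3 moved the least, by 0.240 cycles. Opn3 followed at 0.294, Olfr99 at 0.365 and Gapdh at 0.475, whereas 18S moved the most, by 2.28. The difference between the shifts of Rtp3 and Opn3, 0.0533 cycles, was smaller than the SD between Rtp3 wells in either liver, so these neighbors in the order were not resolved. The receptors moved by a median of 0.771 cycles and by up to 1.51 (Olfr57). Measured against Rtp3, the 15 receptors were later in liver 2 than in liver 1 by a median of 0.531 cycles. However, the values of Opn3 (0.0533), Olfr99 (0.124), Tas2r108 (0.167) and Tas2r135 (0.240) were smaller than the SD between their own wells in at least 1 liver. So were those of Tas1r3 (0.285), Tas2r143 (0.319) and Tas2r126 (0.666). Measured against 18S, Rtp3 and the 15 receptors were all earlier in liver 2. The direction of any difference between these livers depends on the reference, and whether 18S, Gapdh or Rtp3 follows the cDNA input was not tested.

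**Figure D3:**
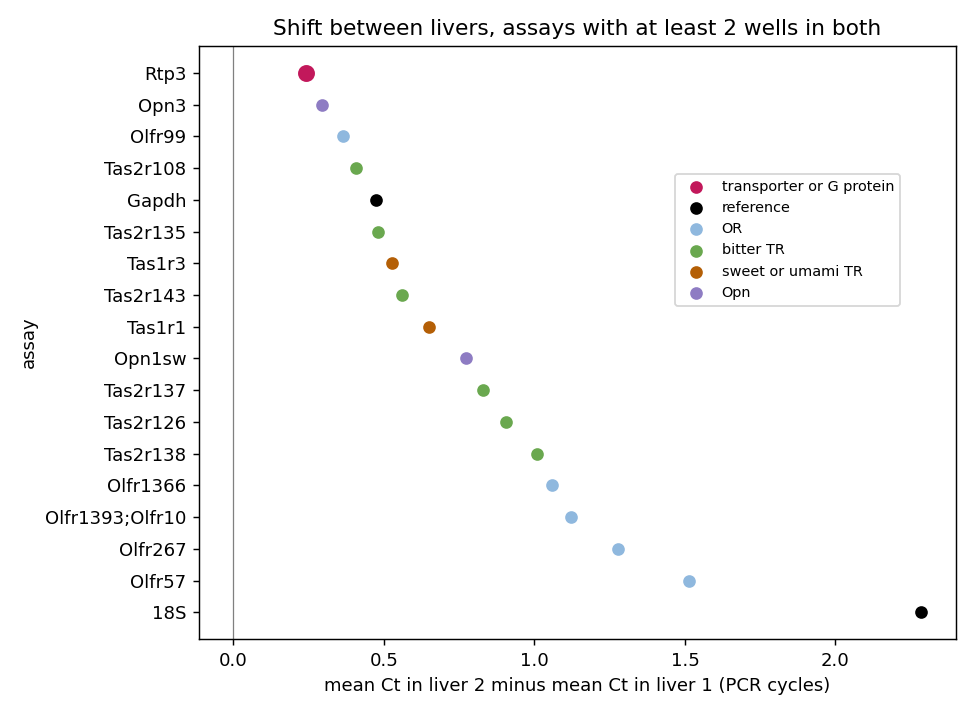
Mean Ct in liver 2 minus mean Ct in liver 1 (PCR cycles) for the 18 assays with at least 2 wells in both livers, ordered by size and colored by class. Rtp3 has the smallest shift, 0.240 cycles, the 15 receptors lie between 0.294 and 1.51, and 18S lies farthest right at 2.28.

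Rtp1 and Rtp2, the transporters that serve ORs in the nose, had no Ct in any of their 16 wells. All 8 wells of Rtp1 were blank. For Rtp2, 1 well of liver 1 was marked undetermined and the other 7 were blank. The table does not say how blank and undetermined wells differ, and a Gapdh well of liver 2 is blank as well, so a blank well alone does not show that the transcript was missing. A lack of any Ct was shared by 29 of the 86 receptors. In the same cards 32 of the 43 ORs had a Ct in at least 1 well, and 5 ORs, Olfr99, Olfr267, Olfr1366, Olfr57 and the assay shared by Olfr1393 and Olfr10, were read in 2 or more wells of each liver. These ORs were thus measured in livers in which Rtp1 and Rtp2 were not detectable at this depth. No tissue that is known to express Rtp1 or Rtp2 was run on the cards, so the sensitivity of these 2 assays is not known.

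Gnal had a Ct of 36.98 in 1 well of liver 1. Its other 3 wells of liver 1 and all 4 wells of liver 2 were blank. This single well came 12.3 cycles after the mean of Rtp3 and has no replicate, so it did not meet the detection rule. In liver 1, 22 receptors also had a single well and no Ct in liver 2, with a median Ct of 36.96 and a range of 32.89 (Olfr355) to 37.32 (Tas2r102). Of these 22 single wells, 15 lay within 0.1 cycles of the Gnal well. Over all assays, 28 of the 156 wells with a Ct in liver 1, from 27 assays, fell within 0.1 cycles of cycle 37, a window chosen after the values had been seen, and only 2 wells came later. Gnal thus read like the last wells of the card, and its Ct was not distinguishable from those of the 15 receptors beside it. By reverse transcription PCR, a separate assay, the authors report that the transcript for Gαolf was detected in whole liver cDNA.

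Gnat3 read 34.25, 34.98, 35.71 and 36.96 cycles in the 4 wells of liver 1, a mean of 35.48 with an SD of 1.16 between wells. In liver 2, 1 well was marked undetermined and 3 were blank. The wells of liver 1 spanned 2.71 cycles, and their SD was the largest of the 26 assays with all 4 wells in liver 1, ahead of Olfr558 at 0.829. The latest Gnat3 well lay in the window around 37 cycles that also held the Gnal well, while the earliest preceded it by more than 2 cycles. ΔCt of Gnat3 in liver 1 was 28.6 relative to 18S and 16.2 relative to Gapdh, and no spread between livers can be given. It came 10.8 cycles after Rtp3.

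The place of Gnat3 among the TRs that gustducin serves in taste cells depended on which TRs were counted. Among the 11 TRs with at least 2 wells in liver 1, 10 had an earlier mean Ct and 1, Tas2r106, a later one. Among the 21 TRs with at least 1 well, 10 were earlier and 11 later, and the remaining 17 TRs, all bitter, had no Ct. Tas1r3 preceded Gnat3 by 3.97 cycles, with no overlap between their wells. The distances to its closer neighbors were not resolved: Tas1r1 preceded Gnat3 by 0.748 cycles, Tas2r138 by 0.399 cycles and Tas1r2, the sweet receptor subunit, by 0.295 cycles, each less than the SD between Gnat3 wells and with overlapping wells. The mean of Tas2r144 lay 0.0308 cycles before that of Gnat3, but it rests on 2 wells that differed by 3.23 cycles. With the median of the wells in place of the mean, the rank of Gnat3 in the set it forms with the 11 TRs of at least 2 wells moved from 11 to 9.

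The assays most like Gnat3, with at least 2 wells in liver 1 and none in liver 2, were Tas2r144 (0.0308 cycles apart), Olfr288 (0.137 cycles) and Olfr646 (0.221 cycles), each of which had 2 wells. Of the 22 receptors with 4 wells in liver 1, 4 had no Ct in liver 2. Within 1 cycle of Gnat3, a window also set after the values had been seen, 9 receptors had 4 wells in liver 1. The 6 that were earlier than Gnat3, Tas1r1, Olfr691, Olfr558, Tas2r138, Tas1r2 and Olfr57, each had at least 1 well with a Ct in liver 2, from 1 well for Olfr691, Olfr558 and Tas1r2 to 4 wells for Tas2r138. The 3 that were later, Olfr545, Olfr90 and Olfr56, had none. This order holds for the receptors with 4 wells in this window. With at least 2 wells in liver 1, 17 receptors had no Ct in liver 2, and Olfr1428 was among them with a mean Ct of 33.06 over 2 wells, earlier than Gnat3. The lack of a Ct for Gnat3 in liver 2 was thus shared by receptors of like Ct. Among receptors with at least 2 wells in liver 1, those of earlier Ct that shared it had only 2 wells there. Of the 319 wells without a Ct in liver 2, 315 were blank, and what a blank well means is not given. A difference in Gnat3 between the livers was not tested.

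**Figure D4:**
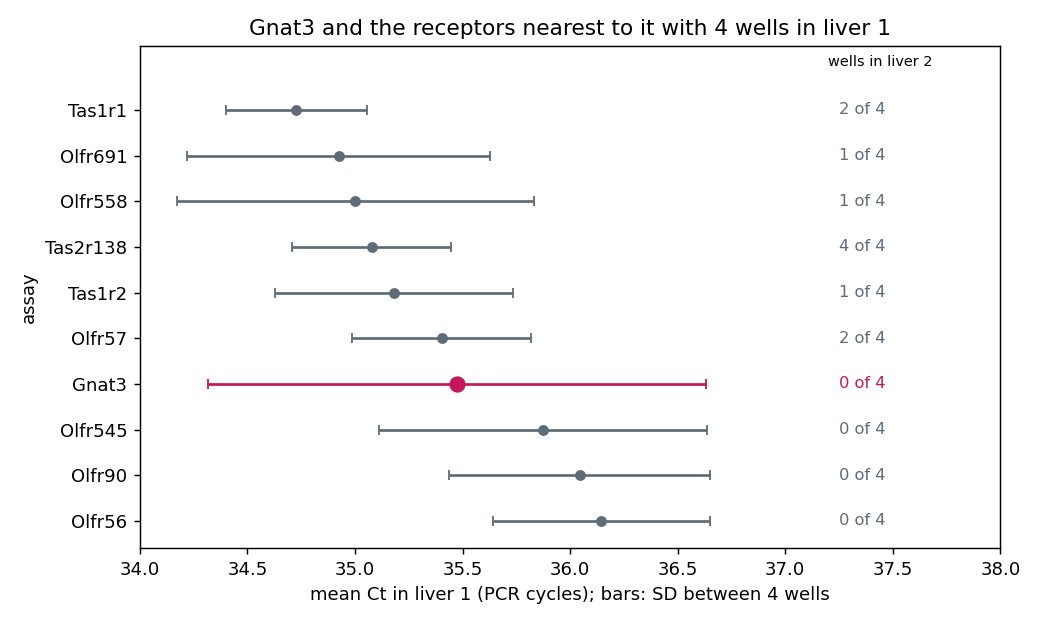
Mean Ct in liver 1 (PCR cycles) with the SD between 4 wells for Gnat3 and the 9 receptors within 1 cycle of it that had 4 wells in liver 1; the numbers on the right give the wells with a Ct in liver 2. The 6 receptors above Gnat3 have 1 to 4 wells in liver 2, and Gnat3 and the 3 receptors below it have 0.

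The design of the assays differed among these genes. Rtp1, Rtp3, Gnal and Gnat3 carry the supplier's mark m1, given to assays whose probe spans an exon junction, whereas Rtp2 carries s1, given to assays within 1 exon, which can also read genomic DNA. Of the 86 receptors, 72 carry s1 and 8 carry m1. The 8 receptors with m1 were set beside the 4 partner genes with the same mark. Among them Opn3 had a mean Ct of 31.07 in liver 1, Opn1sw 33.16, Tas1r1 34.73, Tas1r2 35.18 and Opn4, which rests on 2 wells, 35.79. Opn1mw and Tas2r113 had a single well each, at 36.96 and 37.12 cycles, and Opn5 had none. Within this set Rtp3 was earlier than every receptor, and Rtp1, like Opn5, had no Ct. Gnat3 was not resolved from Tas1r1, Tas1r2 and Opn4, whose means lay within its SD between wells, and the single Gnal well was not resolved from those of Opn1mw and Tas2r113. In liver 2 only Opn3, Opn1sw, Tas1r1 and Tas1r2 of these 8 receptors had a Ct, and among the 4 partner genes only Rtp3.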

How the data were processed

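The authors ran the cDNA on TaqMan array cards, read them with the SDS software of the real-time PCR system, and deposited the Ct of each well, a score in PCR cycles that is not normalized. Threshold and baseline settings are not given in the sources used here. The methods describe triplicate wells, while the table holds 4 per assay and liver, in ascending order, which leaves no pairing of wells across genes. Of 384 wells per liver, 228 in liver 1 and 319 in liver 2 have no Ct and were left out. In liver 1, 62 of these were marked undetermined and 166 were blank, against 4 and 315 in liver 2. The sources used here do not say whether the 2 livers were recorded alike. Every count of wells with a Ct that is compared between the livers carries this limit. The wells of each assay were averaged per liver, 18S was subtracted to give ΔCt, and livers were averaged (SD, n = 2). Detection required a Ct in at least 2 wells of each liver. No groups of animals were compared, differences between assays over 2 livers are given as values without a test, and no p-value was computed. Named were the 5 genes, the references, the earliest receptor of each class and the 3 assays most like a gene by mean Ct, while others were named after their values were seen. The genes and rules were chosen with earlier results of these data known. Protein alignment was planned and not run, because no protein sequences were used here. All 5 genes matched the RefSeq table. Python 3.11.15, NumPy 2.4.6 and Matplotlib 3.10.9 were used. Only the averaging of wells and the count of wells with a Ct were tested on simulated data, not the ranks, distances or shifts.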

Additional observations from a re-analysis of the deposited data

How the results depend on the processing

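Precision is limited by 2 livers, by the late Ct values of Gnat3 and Gnal, and by wells without a Ct, which are all the wells of Rtp1 and Rtp2. A rule of at least 2 wells in 1 of the 2 livers raised the count of detected genes from 1 to 2 by adding Gnat3. That rule was met by 35 of the 86 receptors. Leaving out liver 2 gave 2 genes beside 35 receptors, and leaving out liver 1 gave 1 gene beside 15 receptors. Rules of 1, 3 or 4 wells in each liver kept Rtp3 alone, beside 18, 13 and 8 receptors. So did a rule of at least 2 wells with a Ct under 35 in each liver, beside 11 receptors. Setting wells without a Ct to 40 cycles moved Rtp3 minus Gapdh from 5.29 to 2.76 cycles, through the blank Gapdh well of liver 2, the distance from Rtp3 to the earliest receptor from 6.34 to 6.72, since Tas1r3 takes the place of Olfr99 in liver 2, and the rank of Gnat3 among TRs from 11 to 10. The rank was 9 with the median of the wells. With Gapdh as the reference, ΔCt was 5.29 for Rtp3 and 16.2 for Gnat3. Leaving out a liver gave 15.8 to 17.8 for ΔCt of Rtp3, 5.18 to 5.41 for Rtp3 minus Gapdh and 6.28 to 6.40 for the earliest receptor; without liver 1, Gnat3 has no value. No other planned setting moved a value by more than its spread. With 2 livers, however, leaving 1 out always moves a mean over livers by less than the SD between them. For ΔCt of Rtp3, Rtp3 minus Gapdh and the earliest receptor, leaving out a liver could therefore not exceed the spread. The values of Gnat3 come from liver 1 alone and could not change without liver 2. No paired analysis was possible because no groups of animals were compared, while differences between assays were taken within each liver.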
